A study of Arabidopsis thaliana with 18 samples.

Results

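The 10 genes described here encode enzymes that break down membrane phospholipids: NPC4, NPC5, PLDZ1, PLDZ2, PAH1, PAH2, GDPD1, GDPD2, GDPD3 and GDPD6. They were chosen as a list of gene identifiers, and all 10 were found among the 37037 rows of the count table. The table comes from poly(A) RNA sequencing of roots of Arabidopsis thaliana wild type, ecotype Col-0 (Columbia), with 6 groups of 3 libraries; of all rows, 19982 passed the filter on low counts. Seedlings were kept for 8 days on Murashige and Skoog medium with phosphate at 5 µM (called starved here; some sample labels describe these plants as grown without phosphate) or at 625 µM (called fed here). At each phosphate level 1 group then received 5 µM trans-zeatin for 8 hours, 1 group received 5 µM cis-zeatin for 8 hours and 1 group was left untreated. All 6 groups share the genotype, the organ and the growth period, and the labels do not say whether the untreated plants got the solvent alone. trans-Zeatin and cis-zeatin are cytokinins, plant hormones, whose side chains differ in cis-trans geometry at their double bond. The comparisons ask how these genes stand under low phosphate, how they answer each isomer in starved and in fed plants, and whether that answer depends on the isomer or the phosphate.

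When phosphate runs short, plants take their membrane phospholipids apart, recover the phosphate and fill the membranes with galactolipids and sulfolipids, which hold none. Non-specific phospholipases C (NPC) split a phospholipid into diacylglycerol and a phosphorylated head group, while phospholipases D of the zeta type (PLDZ) release the head group and leave phosphatidic acid, which phosphatidate phosphatases turn into diacylglycerol. In a separate route the fatty acids are removed first, and glycerophosphodiester phosphodiesterases (GDPD) cleave what remains into glycerol-3-phosphate and an alcohol. Diacylglycerol from the first routes is the substrate for galactolipid and sulfolipid synthesis.

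Each library held 20839562 to 21871669 counted reads of 50 bases, and all root markers on a list of 10 were detected in every library. The summed level of 10 photosynthesis genes, which mark green shoot tissue, was far lower, from 15.3 to 123 CPM (counts scaled to a common library size of 1e6), and 4 of them, LHCB2.1, RBCS3B, CAB3 and CA1, were at 0 in some libraries. The libraries fall into 3 classes by the number of reads that were discarded for undetermined bases, per the deposited sequencing report: 7 libraries with 22738 to 25354, 5 with 40794 to 58614 and 6 with 81544 to 85178. All starved untreated libraries are in the first class and all fed untreated libraries in the last, so the class and starvation cannot be told apart in that comparison. Replicates numbered 2 of the starved cis-zeatin and starved trans-zeatin groups stood farthest from their own replicates. The labels do not say that replicates came from separate cultures, so p-values measure only the spread between these samples, which may be technical. Fewer cells of a type and less RNA per cell cannot be told apart in such bulk samples.

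Promoter sequences are shown first, for 6 of the members. They include PLDZ2 beside PLDZ1 and PAH1 beside PAH2, pairs of relatives whose levels responded unlike each other to phosphate. All 10 identifiers were matched to the RefSeq annotation of assembly TAIR10.1, from which gene positions and sequences were taken; the build behind the deposited counts is unknown. Each window runs from 250 bases before to 50 bases after the annotated gene start and is read 5′ to 3′ on the strand of the gene. Capitals mark every match to the letters GNATATNC, known as P1BS, the motif that phosphate starvation regulators of the PHR1 family bind. The motif is its own reverse complement, so a match counts for both strands, and no match overlapped another. NPC4 (AT3G03530) lies on the minus strand of chromosome 3 and its window is chr3:845047-845346. PLDZ2 (AT3G05630, PLDP2 in RefSeq) has the window chr3:1634944-1635243 on the plus strand, and PLDZ1 (AT3G16785, PLDP1 in RefSeq) has chr3:5710639-5710938 on the plus strand. PAH1 (AT3G09560) has chr3:2939462-2939761 on the minus strand, and PAH2 (AT5G42870) has chr5:17189929-17190228 on the minus strand. GDPD1 (AT3G02040, SRG3 in RefSeq) has chr3:349961-350260 on the minus strand.
NPC4: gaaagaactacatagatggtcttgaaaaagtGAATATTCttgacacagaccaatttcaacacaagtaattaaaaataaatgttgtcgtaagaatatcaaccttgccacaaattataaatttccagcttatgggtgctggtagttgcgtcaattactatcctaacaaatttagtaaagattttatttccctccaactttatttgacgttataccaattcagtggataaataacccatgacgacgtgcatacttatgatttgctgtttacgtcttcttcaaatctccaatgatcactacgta
PLDZ2: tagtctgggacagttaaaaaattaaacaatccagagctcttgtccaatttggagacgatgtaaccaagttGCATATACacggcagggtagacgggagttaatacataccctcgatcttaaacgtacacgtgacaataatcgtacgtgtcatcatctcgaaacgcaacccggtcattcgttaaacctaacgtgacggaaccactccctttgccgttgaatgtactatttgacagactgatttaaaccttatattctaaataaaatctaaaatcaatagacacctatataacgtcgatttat
PLDZ1: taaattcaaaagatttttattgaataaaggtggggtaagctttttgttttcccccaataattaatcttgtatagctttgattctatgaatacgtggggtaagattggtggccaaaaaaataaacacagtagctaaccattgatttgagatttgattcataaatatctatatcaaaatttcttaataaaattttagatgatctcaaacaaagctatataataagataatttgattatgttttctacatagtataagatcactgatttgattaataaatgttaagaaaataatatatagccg
PAH1: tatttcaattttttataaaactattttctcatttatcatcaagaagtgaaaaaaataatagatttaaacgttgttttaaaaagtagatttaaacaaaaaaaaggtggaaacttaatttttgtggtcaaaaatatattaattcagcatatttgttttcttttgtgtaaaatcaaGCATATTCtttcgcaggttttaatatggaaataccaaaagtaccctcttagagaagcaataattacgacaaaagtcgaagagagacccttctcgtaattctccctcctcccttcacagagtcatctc
PAH2: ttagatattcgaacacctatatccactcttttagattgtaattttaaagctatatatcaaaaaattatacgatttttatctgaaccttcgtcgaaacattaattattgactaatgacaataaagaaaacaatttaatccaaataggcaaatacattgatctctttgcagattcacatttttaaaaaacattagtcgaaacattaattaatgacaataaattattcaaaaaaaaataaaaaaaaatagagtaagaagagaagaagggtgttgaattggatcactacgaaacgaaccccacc
GDPD1: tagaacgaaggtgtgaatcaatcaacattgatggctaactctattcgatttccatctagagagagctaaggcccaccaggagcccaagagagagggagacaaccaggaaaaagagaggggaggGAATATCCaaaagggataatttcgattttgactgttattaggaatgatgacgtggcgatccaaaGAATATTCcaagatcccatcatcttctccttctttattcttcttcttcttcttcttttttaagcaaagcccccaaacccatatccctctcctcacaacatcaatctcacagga
The match began 219 bases before the gene start in NPC4, 180 before it in PLDZ2 and 77 before it in PAH1. GDPD1 had 2 matches, 127 and 63 bases before its start. PLDZ1 and PAH2 had none in this window. Of the members not printed, GDPD6 (AT5G08030) had 2 matches, GDPD2 (AT5G41080) had 1 that began 42 bases after its start, and NPC5 (AT3G03540) and GDPD3 (AT5G43300) had none. GDPD3 was among the members whose levels changed many fold with phosphate, so the printed windows do not stand for all of those. In all, 6 of the 10 members held the motif in the 300-base window, beside 6.25% of 27443 gene promoters of the same length. In the 1000 bases before the start, 6 of 10 members and 20.3% of all promoters held it, with a match for NPC5 and none for GDPD2 there. A match describes letters only and is not evidence of binding.

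NPC4 and NPC5 are neighbours on chromosome 3, on the same strand, with 1124 bases and no other gene between them. None of the 50-base stretches of the members' exons recurs elsewhere in the assembly, so reads of that length could be assigned to each of them. GDPD1 overlaps AT3G02030, a gene on the opposite strand, over 681 exon bases or 44.7% of its exon length, and it is not known whether counting used the strand. AT3G02030 averaged 13.9 CPM in starved untreated roots and 6.12 CPM in fed untreated roots, below GDPD1 in both. Reads in the overlap could have been given to the wrong gene or to neither. The GDPD1 level, also per kilobase, could thus be too high or too low, which was not tested. The overlaps of PLDZ2 with AT3G05640 (8 bases) and of GDPD6 with AT5G08020 (37 bases) are short.

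Scaled per kilobase of exon, which allows levels of different genes to be set side by side, GDPD1 was the most abundant member in starved untreated roots, at 285 ± 11.6 CPM per kb (mean ± SD, n = 3 in each group throughout). GDPD2 followed at 108 ± 4.16 CPM per kb and NPC4 at 103 ± 8.30 CPM per kb, which did not differ beyond their spread. PLDZ2 at 30.0 ± 1.74 CPM per kb and PAH2 at 28.7 ± 1.42 CPM per kb were likewise close. PAH1 (22.2 ± 2.68 CPM per kb), PLDZ1 (11.4 ± 1.03 CPM per kb) and GDPD3 (3.51 ± 0.320 CPM per kb) came next, and GDPD6 and NPC5 were lowest, at 0.227 ± 0.0415 and 0.183 ± 0.0572 CPM per kb. In fed untreated roots the order was another. GDPD2 led there at 57.8 ± 5.17 CPM per kb, before PAH2 at 32.7 ± 1.05 CPM per kb. GDPD1 at 14.1 ± 0.939 CPM per kb and PLDZ1 at 13.5 ± 0.732 CPM per kb did not differ beyond their spread, and PAH1 had 9.27 ± 0.336 CPM per kb. NPC4 had 5.31 ± 0.107, PLDZ2 1.38 ± 0.0756 and GDPD3 0.235 ± 0.0246 CPM per kb.

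**Figure D1:**
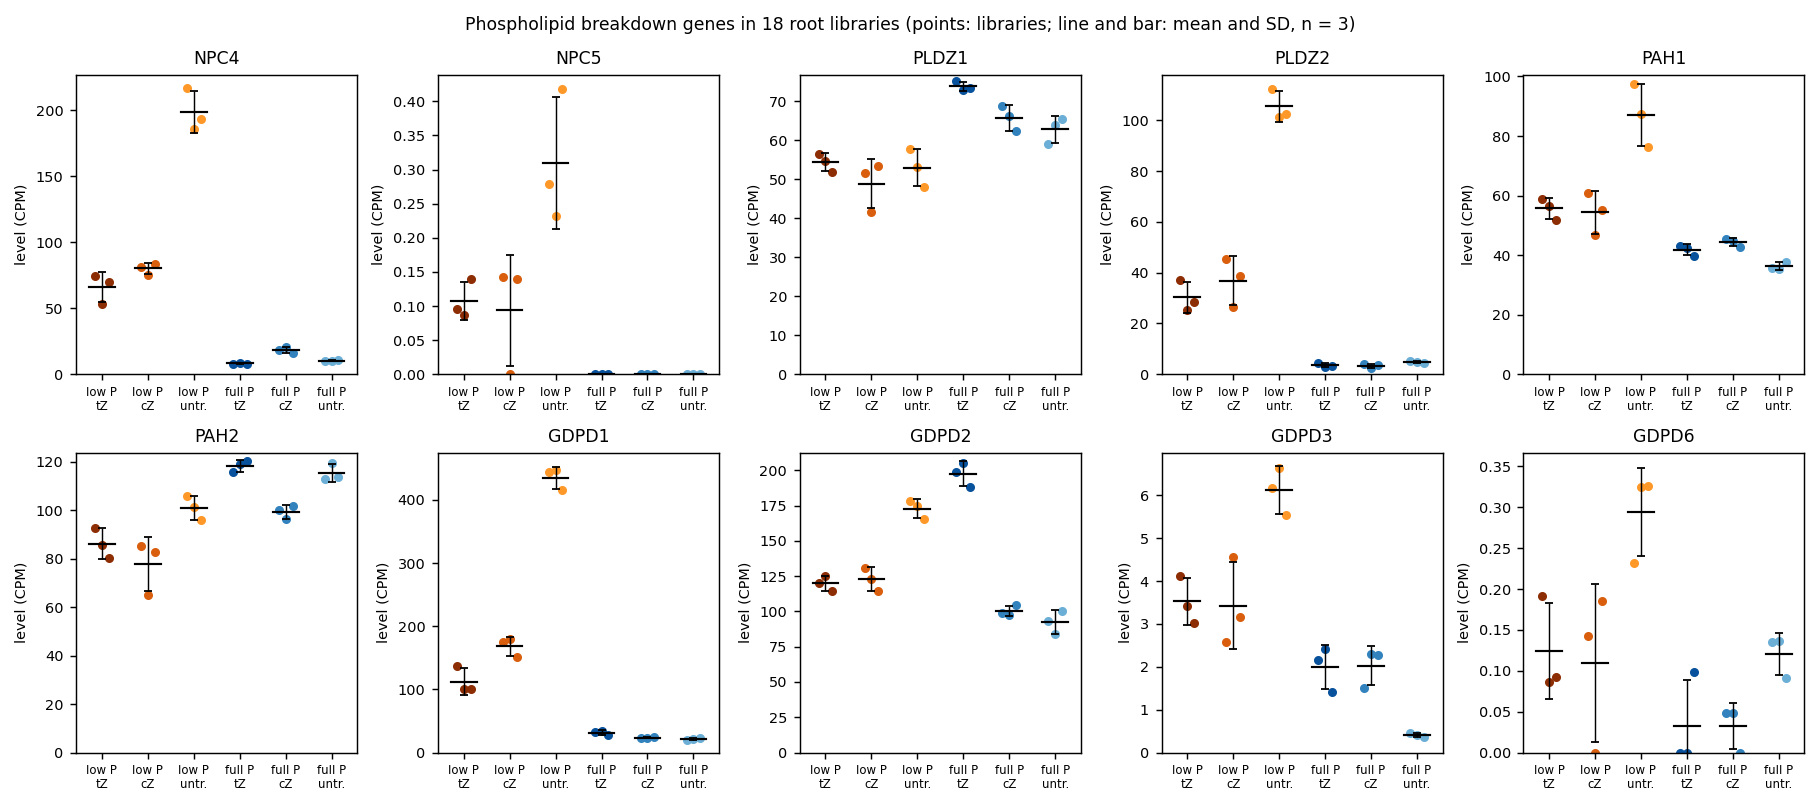
Level of each of the 10 members in CPM (vertical axis, linear, from 0, a scale of its own per gene) in the 18 libraries, grouped along the horizontal axis as starved (low P) trans-zeatin (tZ), cis-zeatin (cZ) and untreated roots, then fed (full P) roots in the same order; points are libraries, the line is the mean and the bar the SD. Of the tested members, NPC4, PLDZ2, PAH1, GDPD1 and GDPD3 peak in starved untreated roots. The group means of PLDZ1 and PAH2 span 0.6 and 0.62 log2 units, and GDPD2 is highest in fed trans-zeatin roots at 197 CPM.

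Phosphate starvation raised 6 of the 8 members that could be tested and lowered 1, and the changes were many fold for 4 of them. NPC4, PLDZ2, GDPD1 and GDPD3 rose 19.4-, 21.7-, 20.3- and 15-fold, PAH1 rose 2.40-fold and GDPD2 1.87-fold, while PLDZ1 fell to 0.843 of its fed level and PAH2 missed the threshold. Tests were edgeR's quasi-likelihood tests over all 19982 genes with Benjamini-Hochberg adjustment and a threshold of 0.05. At that threshold 44.7% of all tested genes passed in this comparison, 22.9% as higher and 21.8% as lower. The median log2 fold change was 2.58 over the tested members and 0.003 over all tested genes. GDPD3 passed the filter on low counts only through the other groups, since it was under the filter's level in fed untreated roots. NPC5 and GDPD6 did not pass it and are described separately.

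Among the phospholipases C, NPC4 had 217, 186 and 193.5 CPM in starved untreated roots, against 10.2, 10.06 and 10.5 CPM in fed untreated roots. The groups were far apart, and the log2 fold change was 4.28 ± 0.118 (SE) with an adjusted p of 1.53e-16. NPC4 ranked 7 of 19982 genes by its p in this comparison and 85 by its size among genes that were higher. Of the phospholipases D, PLDZ2 had 112.5, 101.4 and 102.4 CPM in starved untreated roots, against 5.14, 4.82 and 4.62 CPM in fed untreated roots. Its log2 fold change of 4.44 ± 0.189 (adjusted p = 1.12e-13) was the largest of the members. PLDZ1, the other zeta-type enzyme, known for its part in root hair patterning, had 57.7, 53.2 and 48.1 CPM in starved untreated roots and 59.0, 64.0 and 65.5 CPM in fed untreated roots. The groups lay close but did not overlap, with a log2 fold change of -0.25 ± 0.0859 (adjusted p = 0.0244). That call for PLDZ1 ended when any of 4 libraries was left out, namely starved untreated 2 or 3 or fed untreated 2 or 3, with adjusted p between 0.0525 and 0.138.

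The phosphatidate phosphatases, which produce diacylglycerol and act in parallel, behaved unlike each other. PAH1 had 97.4, 87.4 and 76.4 CPM in starved untreated roots, against 35.7, 35.4 and 37.8 CPM in fed untreated roots. All starved libraries were above all fed ones, and the log2 fold change was 1.26 ± 0.0928 (adjusted p = 6.47e-10). PAH2 had 105.7, 101.4 and 95.8 CPM in starved untreated roots and 112.8, 119.6 and 113.6 CPM in fed untreated roots. Its log2 fold change of -0.19 ± 0.0843 did not pass (adjusted p = 0.0701), although the groups did not overlap. With only the compared groups in the fit, PAH2 passed as lower with an adjusted p of 0.02.

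Of the phosphodiesterases, which act on the deacylated remains, GDPD1 had 444, 447 and 415 CPM in starved untreated roots, against 19.9, 22.0 and 22.6 CPM in fed untreated roots. GDPD1 thereby went to the highest level of any member, with a log2 fold change of 4.34 ± 0.123 (adjusted p = 2.15e-16). GDPD3 had 6.18, 6.64 and 5.53 CPM in starved untreated roots, against 0.451, 0.41 and 0.366 CPM in fed untreated roots. It rose by a similar factor at a much lower level, with a log2 fold change of 3.90 ± 0.276 (adjusted p = 3.44e-10). GDPD2 had 178, 175 and 165 CPM in starved untreated roots, against 93.5, 83.7 and 100.1 CPM in fed untreated roots. The groups did not overlap, and its log2 fold change was 0.90 ± 0.076 (adjusted p = 5.26e-09).

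The summed shoot markers were at 15.3 to 22.2 CPM in starved untreated roots and 41.1 to 68.0 CPM in fed untreated roots, and all 8 that were tested fell. The summed root markers were at 15310 to 15890 CPM in starved untreated roots and 20210 to 25210 CPM in fed untreated roots, of which the beta-glucosidase gene PYK10 made up most. PYK10 fell on starvation, but of all 10 root markers 5 rose and 2 fell. The part of both marker lists in the results on starvation was not tested. The class of libraries with the fewest discarded reads holds the starved untreated and fed cis-zeatin roots and the library starved trans-zeatin 1. Within that class NPC4 averaged 199 ± 16 CPM in starved untreated roots and 18.4 ± 2.14 CPM in fed cis-zeatin roots. PLDZ2 averaged 105.5 ± 6.13 CPM in starved untreated roots and 3.38 ± 0.815 CPM in fed cis-zeatin roots of that class, and GDPD1 435 ± 17.7 CPM and 23.7 ± 0.832 CPM. The other members were closer together there. GDPD3 averaged 6.12 ± 0.557 CPM in starved untreated roots and 2.03 ± 0.452 CPM in fed cis-zeatin roots, PAH1 87.0 ± 10.5 and 44.3 ± 1.404 CPM, and GDPD2 172.8 ± 6.66 and 100.3 ± 3.68 CPM. PLDZ1 averaged 53.0 ± 4.79 CPM in starved untreated roots and 65.7 ± 3.29 CPM in fed cis-zeatin roots, and PAH2 101.0 ± 4.99 and 99.4 ± 2.84 CPM. Those groups also differ in the zeatin treatment.

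In starved roots both zeatins lowered 7 of the 8 tested members, and PLDZ1 was the member that did not pass with either. With trans-zeatin in starved roots 32.2% of all tested genes passed, 13.8% as higher and 18.4% as lower. With cis-zeatin 31.2% passed, 13.1% as higher and 18.1% as lower. The median log2 fold change over the tested members was -0.72 with trans-zeatin and -0.76 with cis-zeatin, beside -0.014 and -0.025 over all tested genes. GDPD1, PLDZ2 and NPC4, which starvation had raised most, fell most in these comparisons, which share the starved untreated libraries with the one before: to 0.258, 0.287 and 0.331 of their starved untreated level with trans-zeatin, and to 0.387, 0.35 and 0.404 with cis-zeatin.

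NPC4 had 74.7, 53.0 and 70.1 CPM in starved trans-zeatin roots and 81.5, 75.5 and 83.7 CPM in starved cis-zeatin roots, all below the 186 CPM of the lowest starved untreated library. The log2 fold changes over starved untreated roots were -1.59 ± 0.101 with trans-zeatin (adjusted p = 7.23e-11) and -1.31 ± 0.1 with cis-zeatin (adjusted p = 1.76e-09). PLDZ2 had 37.0, 25.2 and 28.6 CPM in starved trans-zeatin roots and 45.4, 26.5 and 38.8 CPM in starved cis-zeatin roots, against 101.4 CPM or more in starved untreated roots. Its log2 fold changes were -1.80 ± 0.156 (adjusted p = 8.71e-09) and -1.52 ± 0.154 (adjusted p = 1.15e-07). In both zeatin groups the library numbered 2 was the lowest for PLDZ2. PLDZ1 had 51.8 to 56.4 CPM in starved trans-zeatin roots and 41.6 to 53.3 CPM in starved cis-zeatin roots, which overlapped the starved untreated range of 48.1 to 57.7 CPM.

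PAH1 had 58.7, 56.6 and 51.9 CPM in starved trans-zeatin roots and 61.0, 46.9 and 55.1 CPM in starved cis-zeatin roots. All were below the starved untreated libraries, and the log2 fold changes were -0.64 ± 0.0908 (adjusted p = 9.19e-06) and -0.68 ± 0.0909 (adjusted p = 5.19e-06). PAH2 had 92.8, 85.5 and 80.2 CPM in starved trans-zeatin roots and 85.2, 65.1 and 83.0 CPM in starved cis-zeatin roots, against 95.8 CPM or more in starved untreated roots. Its changes were small, with log2 fold changes of -0.23 ± 0.0847 (adjusted p = 0.0434) and -0.38 ± 0.085 (adjusted p = 0.00165).

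GDPD1 had 136, 100.3 and 100.3 CPM in starved trans-zeatin roots and 175, 179 and 151 CPM in starved cis-zeatin roots, against 415 CPM or more in starved untreated roots. The 3 groups did not overlap, and the log2 fold changes were -1.95 ± 0.109 (adjusted p = 9.77e-12) and -1.37 ± 0.107 (adjusted p = 2.43e-09). GDPD2 had 120.3, 125 and 114.6 CPM in starved trans-zeatin roots and 131, 123 and 114.3 CPM in starved cis-zeatin roots. The zeatin groups lay together below the starved untreated libraries, with log2 fold changes of -0.52 ± 0.0754 (adjusted p = 1.13e-05) and -0.49 ± 0.0754 (adjusted p = 2.9e-05). GDPD3 had 4.12, 3.43 and 3.02 CPM in starved trans-zeatin roots and 2.57, 4.56 and 3.15 CPM in starved cis-zeatin roots. It too was below every starved untreated library, with log2 fold changes of -0.80 ± 0.192 (adjusted p = 0.00274) and -0.83 ± 0.193 (adjusted p = 0.00213).

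All starved untreated libraries are in the class with the fewest discarded reads and all starved cis-zeatin libraries in the middle class. Of the starved zeatin libraries only trans-zeatin 1 is in the class of the starved untreated ones. A fit with the class as a term therefore rests on that library for either zeatin, and it cannot separate the class from cis-zeatin. With the discard class as a term in the fit, NPC4, PLDZ2, PAH1, GDPD1 and GDPD2 still passed as lower with each zeatin in starved roots, and PAH2 and GDPD3 did not. Of all 19982 genes 4140 passed in that fit with trans-zeatin and 2678 with cis-zeatin, in either direction. The adjusted p for PAH2 was then 0.536 with trans-zeatin and 0.42 with cis-zeatin, and that for GDPD3 was 0.157 and 0.449; the PAH2 call with trans-zeatin also ended without any of 4 libraries (starved trans-zeatin 2 or 3, starved untreated 1 or 2), with adjusted p of 0.0887 to 0.173, and with the RLE scaling, without the filter or with only the compared groups. The PAH2 call with cis-zeatin ended with only the compared groups (adjusted p = 0.0502). Summed shoot markers were at 18.9 to 26.9 CPM in starved trans-zeatin roots, 15.3 to 16.5 CPM in starved cis-zeatin roots and 15.3 to 22.2 CPM in starved untreated roots. Summed root markers were at 20000 to 26410 CPM, 24730 to 25220 CPM and 15310 to 15890 CPM in these groups, again mostly PYK10, which rose with each zeatin. Of all 10 root markers 7 fell and 1 rose with trans-zeatin, and 5 fell and 1 rose with cis-zeatin, and their part was not tested.

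**Figure D2:**
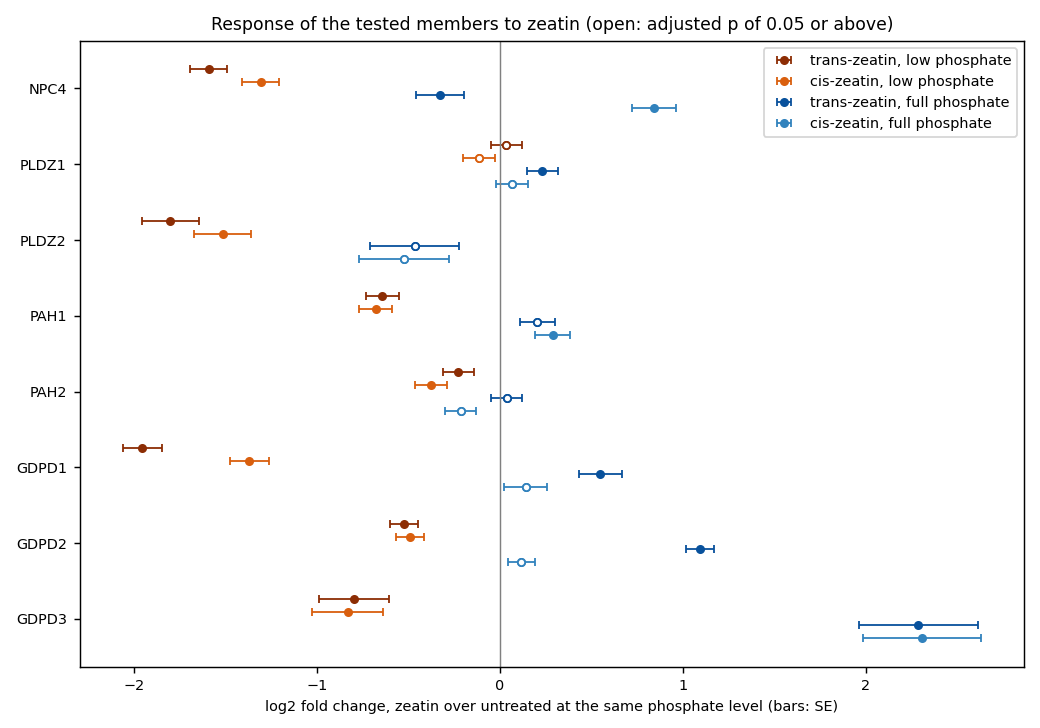
Log2 fold change of each tested member with zeatin over untreated roots of the same phosphate level (horizontal axis), with bars for the SE; rows per gene are trans-zeatin and cis-zeatin in starved roots, then trans-zeatin and cis-zeatin in fed roots. Filled points passed at an adjusted p under 0.05. In starved roots all but PLDZ1 lie left of 0 as filled points, while in fed roots GDPD3 lies near 2.3 with either isomer and NPC4 lies on opposite sides of 0.

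In fed roots the members did not move as a group. trans-Zeatin raised 4 of the 8 tested members (PLDZ1, GDPD1, GDPD2 and GDPD3) and lowered NPC4, where 49.4% of all genes passed, 24.2% as higher and 25.3% as lower. cis-Zeatin raised 3 members (NPC4, PAH1 and GDPD3), where 26.2% of all genes passed, 12.7% as higher and 13.5% as lower. The median log2 fold change over the tested members was 0.22 with trans-zeatin and 0.13 with cis-zeatin, beside -0.005 and -0.026 over all tested genes.

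GDPD2 had 199, 205 and 188 CPM in fed trans-zeatin roots and 99.2, 97.2 and 104.3 CPM in fed cis-zeatin roots, against 93.5, 83.7 and 100.1 CPM in fed untreated roots. With trans-zeatin its fed level was above all other groups, starved untreated roots included, and the log2 fold change was 1.10 ± 0.0762 (adjusted p = 2.4e-10). With cis-zeatin it was 0.12 ± 0.0761 (adjusted p = 0.294). GDPD1 had 32.4, 34.8 and 27.1 CPM in fed trans-zeatin roots and 22.9, 23.6 and 24.6 CPM in fed cis-zeatin roots, against 19.9, 22.0 and 22.6 CPM in fed untreated roots. It was higher with trans-zeatin, at a log2 fold change of 0.55 ± 0.117 (adjusted p = 0.00056), and with cis-zeatin the value was 0.14 ± 0.118 (adjusted p = 0.434).

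GDPD3 had 2.16, 2.41 and 1.42 CPM in fed trans-zeatin roots and 1.51, 2.29 and 2.28 CPM in fed cis-zeatin roots, against 0.451, 0.41 and 0.366 CPM in fed untreated roots. Both isomers raised it, by 4.89- and 4.96-fold, with log2 fold changes of 2.29 ± 0.326 (adjusted p = 6.63e-06) and 2.31 ± 0.325 (adjusted p = 1.13e-05). NPC4 had 8.02, 8.47 and 7.99 CPM in fed trans-zeatin roots and 18.7, 20.4 and 16.1 CPM in fed cis-zeatin roots, against 10.2, 10.06 and 10.5 CPM in fed untreated roots. The 3 groups did not overlap: with cis-zeatin NPC4 was higher, at a log2 fold change of 0.84 ± 0.119 (adjusted p = 1.2e-05), and with trans-zeatin it was lower, at -0.33 ± 0.129 (adjusted p = 0.0402). The trans-zeatin call for NPC4 ended when any of the 6 libraries was left out (adjusted p 0.0601 to 0.134), with DESeq2 (0.0514) and with RLE scaling (0.0558).

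PLDZ1, PAH1, PAH2 and PLDZ2 passed with at most 1 isomer in fed roots. PLDZ1 had 75.2, 72.9 and 73.3 CPM in fed trans-zeatin roots and 62.3 to 68.8 CPM in fed cis-zeatin roots, against 59.0 to 65.5 CPM in fed untreated roots. The trans-zeatin libraries stood above, with a log2 fold change of 0.23 ± 0.0853 (adjusted p = 0.0285), a call that ended without any of 4 libraries (fed trans-zeatin 2 or 3, fed untreated 1 or 2; adjusted p 0.051 to 0.123). PAH1 had 39.7 to 43.2 CPM in fed trans-zeatin roots and 42.7 to 45.3 CPM in fed cis-zeatin roots, against 35.4 to 37.8 CPM in fed untreated roots. Its log2 fold change was 0.29 ± 0.0938 with cis-zeatin (adjusted p = 0.026), which ended without any of 4 libraries (fed cis-zeatin 1 or 2, fed untreated 1 or 2; adjusted p 0.073 to 0.0851), and 0.20 ± 0.094 with trans-zeatin (adjusted p = 0.0772). PAH2 at 115.6 to 120.4 CPM in fed trans-zeatin roots and 96.3 to 101.8 CPM in fed cis-zeatin roots, against 112.8 to 119.6 CPM in fed untreated roots, passed with neither isomer. PLDZ2 at 3.004 to 4.46 CPM in fed trans-zeatin roots and 2.44 to 3.93 CPM in fed cis-zeatin roots, against 4.62 to 5.14 CPM in fed untreated roots, passed with neither isomer either (adjusted p = 0.12 and 0.127). With only the compared groups in the fit PLDZ2 passed as lower with each isomer (adjusted p = 0.0231 and 0.0373), and so did PAH1 with trans-zeatin as higher (0.00648) and PAH2 with cis-zeatin as lower (0.0143). Summed shoot markers were at 85.3 to 123 CPM in fed trans-zeatin roots, 39.5 to 40.9 CPM in fed cis-zeatin roots and 41.1 to 68.0 CPM in fed untreated roots. Of the 8 tested shoot markers 6 rose and 1 fell with trans-zeatin there, and 0 rose and 2 fell with cis-zeatin. Summed root markers were at 31630 to 34080 CPM, 32860 to 34630 CPM and 20210 to 25210 CPM in the same groups, mostly PYK10, which rose with each zeatin. Of all 10 root markers 7 fell and 1 rose with trans-zeatin, and 6 fell and 2 rose with cis-zeatin. The part of both marker lists in these results was not tested. Fed cis-zeatin and fed untreated libraries are in different discard classes, so the class and cis-zeatin cannot be told apart in fed roots, whereas fed trans-zeatin and fed untreated libraries share a class.

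Whether the response to zeatin differed with phosphate was tested as an interaction, the log2 response in starved roots minus that in fed roots. For trans-zeatin 6 of 8 tested members had a lower response in starved roots (PLDZ1 and PAH2 did not pass), where 20.4% of all genes passed, 9.28% as higher and 11.2% as lower. The interaction was -3.09 ± 0.379 for GDPD3, -2.50 ± 0.159 for GDPD1, -1.62 ± 0.107 for GDPD2, -1.34 ± 0.290 for PLDZ2, -1.26 ± 0.163 for NPC4 and -0.85 ± 0.131 for PAH1. GDPD1 and GDPD2 ranked 7 and 8 of 19982 genes by p in it. PAH2 had -0.27 ± 0.119 (adjusted p = 0.124), which passed with only the compared groups (0.0481) and without both starved zeatin libraries numbered 2 (0.0371). Of the 8 tested shoot markers 3 also had a lower response in starved roots, and their part was not tested. For cis-zeatin 5 members passed in the same direction (PLDZ1, PLDZ2 and PAH2 did not pass), where 4.21% of all genes passed, 1.58% as higher and 2.64% as lower. The interaction was -3.14 ± 0.378 for GDPD3, -2.15 ± 0.155 for NPC4, -1.51 ± 0.159 for GDPD1, -0.97 ± 0.131 for PAH1 and -0.61 ± 0.107 for GDPD2. NPC4 had the smallest p of all 19982 genes there (adjusted p = 1.53e-07). PLDZ2 had -0.99 ± 0.290 with an adjusted p of 0.0579, which passed with DESeq2 (0.00925), without the filter (0.031) and with only the compared groups (0.0462). The median interaction was -1.30 for trans-zeatin and -0.98 for cis-zeatin over the tested members, beside 0.002 and -0.008 over all tested genes. Both interactions share the untreated libraries. The cis-zeatin interaction could not be fitted with the discard class as a term. The trans-zeatin interaction kept 6 members called with the class as a term, where 1767 of all 19982 genes passed. That fit rests on starved trans-zeatin 1, the only starved trans-zeatin library in the class of the starved untreated libraries.

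The zeatins at the same dose and time were then compared with each other, for the 8 tested members at each phosphate level. In starved roots 1 member differed, where 2.77% of all genes passed, 1.35% as higher and 1.42% as lower: GDPD1 was lower with trans-zeatin than with cis-zeatin, by a log2 difference of -0.58 ± 0.107 (adjusted p = 0.0049). All 3 starved trans-zeatin libraries, at 100.3 to 136 CPM, were below the 3 starved cis-zeatin libraries, at 151 to 179 CPM. With only these groups in the fit the value was -0.58 with an adjusted p of 0.117. For NPC4 the difference was -0.28 with a 95% interval of -0.49 to -0.07, and the groups did not overlap, but the adjusted p was 0.123. For PLDZ2 the interval of the difference was -0.61 to 0.04. For PAH1 it was -0.15 to 0.23, for PAH2 -0.03 to 0.33 and for PLDZ1 -0.03 to 0.33. For GDPD2 it was -0.19 to 0.12 and for GDPD3 -0.39 to 0.46, all on the log2 scale of trans-zeatin over cis-zeatin.

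In fed roots 4 members differed between the isomers, where 41.2% of all genes passed, 20.7% as higher and 20.5% as lower. NPC4 was lower with trans-zeatin than with cis-zeatin, by -1.17 ± 0.123 (adjusted p = 3.11e-07). GDPD2 was higher with trans-zeatin by 0.98 ± 0.076 (adjusted p = 6.12e-09), GDPD1 by 0.41 ± 0.116 (adjusted p = 0.00815) and PAH2 by 0.25 ± 0.0845 (adjusted p = 0.0214). The GDPD1 call ended without fed trans-zeatin 2 (adjusted p = 0.0554), and the PAH2 call without fed trans-zeatin 2 or 3 or fed cis-zeatin 2 (0.0583 to 0.0785). The 95% interval of the difference was -0.01 to 0.34 for PLDZ1, -0.48 to 0.60 for PLDZ2, -0.28 to 0.11 for PAH1 and -0.53 to 0.49 for GDPD3. The fed trans-zeatin and fed cis-zeatin libraries are in different discard classes, and the class and the isomer cannot be told apart there. Of the 8 tested shoot markers 7 were higher with trans-zeatin than with cis-zeatin in fed roots, and their part was not tested. The isomer difference itself changed with phosphate for 3 members, where 18.3% of all genes passed, 8.61% as higher and 9.74% as lower. PLDZ1, PLDZ2, PAH1, PAH2 and GDPD3 did not pass. The difference in starved roots minus that in fed roots was 0.89 ± 0.159 for NPC4 (adjusted p = 0.000795), -0.99 ± 0.158 for GDPD1 (adjusted p = 0.000277) and -1.01 ± 0.107 for GDPD2 (adjusted p = 7.07e-06). That contrast contains the fed isomer difference, so the discard class cannot be told apart from it either. Of the 8 tested shoot markers 2 passed as lower in that contrast, and their part was not tested.

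**Figure D3:**
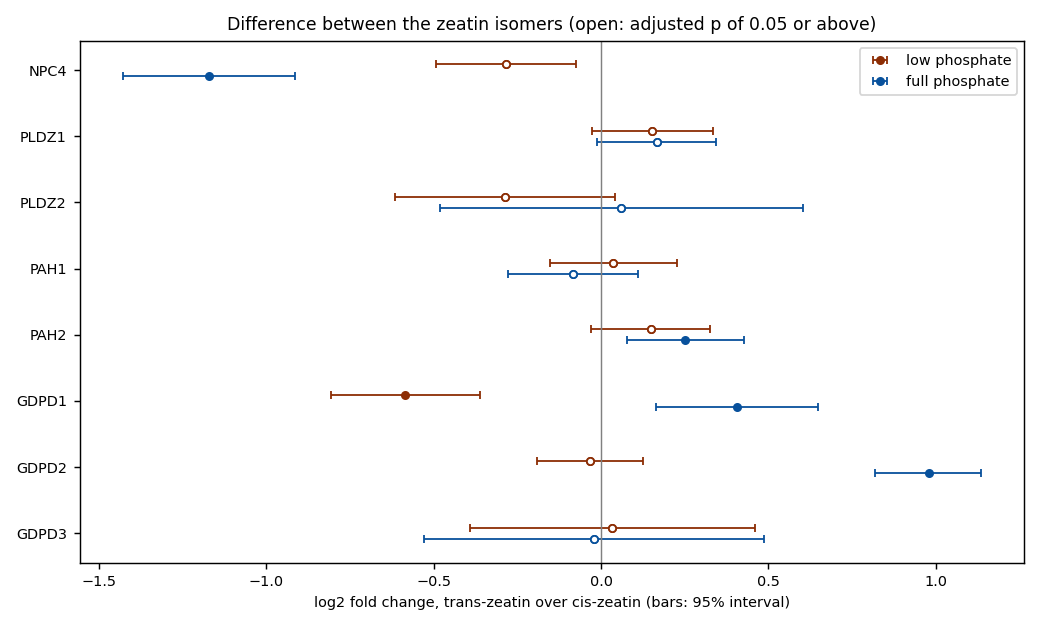
Log2 fold change of trans-zeatin over cis-zeatin for each tested member (horizontal axis), in starved roots (upper point) and fed roots (lower point), with 95% intervals as bars; filled points passed at an adjusted p under 0.05. GDPD1 lies on opposite sides of 0 at the 2 phosphate levels, at -0.58 in starved and 0.41 in fed roots, and NPC4, PAH2 and GDPD2 are filled for fed roots and open for starved roots.

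What remained of the rise was read by setting the starved zeatin-treated roots against fed untreated roots. NPC4 was 6.43-fold higher in starved trans-zeatin roots and 7.83-fold higher in starved cis-zeatin roots, beside 19.4-fold in starved untreated roots, each over fed untreated roots. PLDZ2 was 6.22- and 7.58-fold higher in these zeatin groups, beside 21.7-fold untreated, and GDPD1 was 5.23- and 7.84-fold higher, beside 20.3-fold. GDPD3 was 8.60- and 8.40-fold higher, PAH1 1.54- and 1.5-fold and GDPD2 1.30- and 1.33-fold. All 6 of these members passed as higher in both comparisons, and PAH2 and PLDZ1 passed as lower. With trans-zeatin 49.3% of all genes passed, 23.9% as higher and 25.4% as lower, and with cis-zeatin 55.1% passed, 26.4% as higher and 28.7% as lower. Summed shoot markers were at 18.9 to 26.9 CPM in starved trans-zeatin roots, 15.3 to 16.5 CPM in starved cis-zeatin roots and 41.1 to 68.0 CPM in fed untreated roots, and their part was not tested. No starved zeatin library shares a discard class with a fed untreated library, so the class and these contrasts cannot be told apart. PAH2 stood at 0.747 of its fed untreated level in starved trans-zeatin roots and at 0.674 in starved cis-zeatin roots, PLDZ1 at 0.865 and 0.778. The PLDZ1 call in trans-zeatin roots (adjusted p = 0.0485) ended under 9 of the alternatives tried, with adjusted p up to 0.151.

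**Figure D4:**
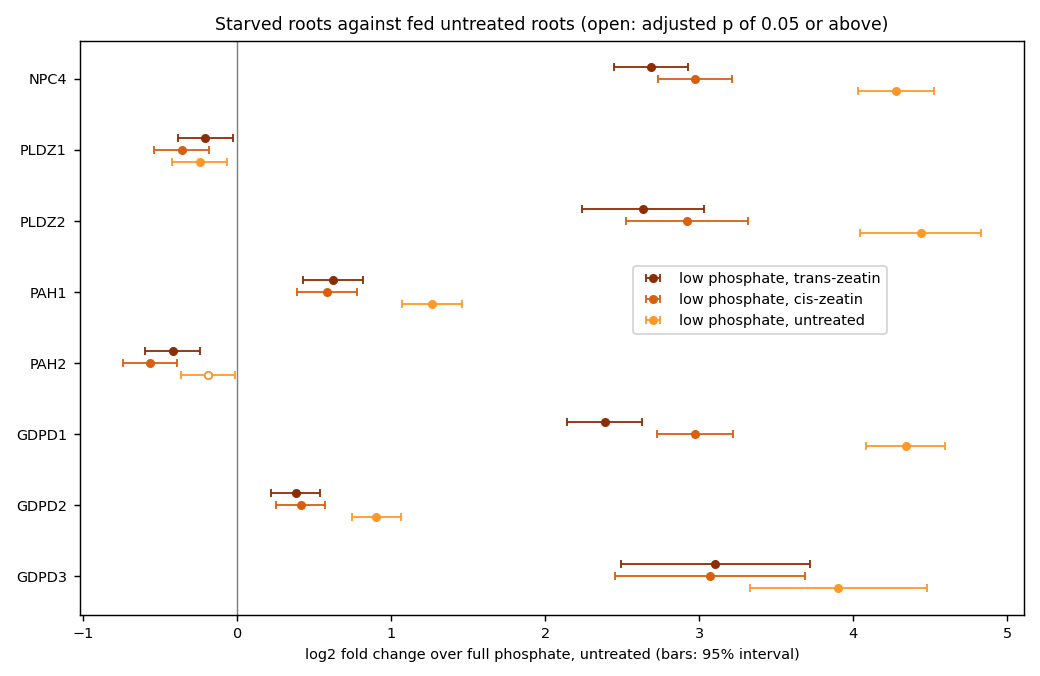
Log2 fold change over fed untreated roots (horizontal axis) of each tested member in starved trans-zeatin, starved cis-zeatin and starved untreated roots, with 95% intervals as bars; open points had an adjusted p of 0.05 or above. For NPC4, PLDZ2 and GDPD1 the zeatin-treated points sit between 2.39 and 2.97, left of the untreated points at 4.28 to 4.44.

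Under zeatin the starvation comparison itself looked different. With trans-zeatin in both groups, low phosphate raised 5 members and lowered 3, where 64.1% of all genes passed, 32.7% as higher and 31.3% as lower. With cis-zeatin in both it raised 6 and lowered 2, where 49.2% passed, 24.8% as higher and 24.4% as lower. GDPD2 averaged 120.1 ± 5.33 CPM in starved trans-zeatin roots and 197 ± 8.80 CPM in fed trans-zeatin roots, a log2 fold change of -0.72 ± 0.0755 (adjusted p = 7.37e-08), opposite in sign to its value of 0.90 without zeatin. The rise of GDPD3 was 1.76-fold under trans-zeatin and 1.70-fold under cis-zeatin, beside 15-fold without zeatin. That of NPC4 was 8.07-fold under trans-zeatin and 4.37-fold under cis-zeatin, and that of GDPD1 3.57- and 7.11-fold. PLDZ2 rose 8.58- and 10.9-fold. PAH1 rose 1.33- and 1.23-fold, and PAH2 and PLDZ1 passed as lower under either isomer. Of the 8 tested shoot markers 7 fell on starvation under trans-zeatin and 6 under cis-zeatin, and of the 10 root markers 5 and 6 rose and 2 fell under each. Summed shoot markers were at 18.9 to 26.9 CPM in starved trans-zeatin roots and 85.3 to 123 CPM in fed trans-zeatin roots, and their part was not tested. Under trans-zeatin the discard class and starvation cannot be told apart, since no starved trans-zeatin library shares a class with a fed trans-zeatin library. No starved cis-zeatin library shares a class with a fed cis-zeatin library either. The class could be a term there only because starved trans-zeatin 1 is in another class than starved trans-zeatin 2 and 3. With the class as a term 4 members remained called under cis-zeatin (NPC4, PLDZ2, GDPD1 and GDPD3), where 3116 of all 19982 genes passed. The calls of PLDZ1, PAH1, PAH2 and GDPD2 ended (adjusted p 0.103 to 0.429). That class difference comes from another group and few libraries, so these calls do not separate class from starvation under cis-zeatin. The GDPD3 call under cis-zeatin ended without fed cis-zeatin 1 (adjusted p = 0.0549) or starved cis-zeatin 2 (0.0767), and the PAH1 call without starved cis-zeatin 1 (0.0903).

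NPC5 and GDPD6 were read so rarely that neither entered the fit. NPC5 had 6, 5 and 9 reads in the 3 starved untreated libraries, against 0 in each of the 9 fed libraries. Summed over a group it had 7 reads in starved trans-zeatin roots, 6 in starved cis-zeatin roots and 20 in starved untreated roots. Against a floor of 3 reads over the fed untreated group, NPC5 was 6.82-fold higher in starved untreated roots. That value leaves out the sampling spread of its 20 reads and is not a lower bound. GDPD6 had 5, 7 and 7 reads in starved untreated libraries and 3, 3 and 2 reads in fed untreated libraries. All starved untreated libraries exceeded all fed untreated ones for both genes, whereas starved cis-zeatin 2 had 0 reads of either gene. Between the untreated groups a two-sided exact permutation test gave p = 0.1 for each, the smallest value that 3 against 3 allows. Without the filter, edgeR gave adjusted p = 0.000946 for NPC5 and 0.163 for GDPD6 in that comparison.

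The genes whose 6 group means moved most like a member were found by the root mean square distance between centred log2 levels over the 6 groups (18 libraries), for the 6 members whose group means span at least 1 log2 unit. Nearest to NPC4 was G3Pp3, of the glycerol-3-phosphate permease family (distance 0.178 log2 units), followed by NAS3, a nicotianamine synthase gene (0.262), and AT5G53820 (0.264). Nearest to PAH1 were HHP4 (0.060), STP12 (0.073) and DGD1, which encodes a digalactosyldiacylglycerol synthase (0.081). For GDPD1 they were HDG8 (0.191), AT1G08310 (0.219) and AT1G15600 (0.226), and for PLDZ2 AT4G23000 (0.208), PFA-DSP4 (0.233) and AT1G52120 (0.235). Nearest to GDPD3 were AT1G34520 (0.285), AT1G72070 (0.321) and AT4G20160 (0.431). Nearest to GDPD2 were AT4G35750 (0.029), AT5G41750 (0.075) and ATGLR1.2 (0.109). The distance is not scaled by how far a member moved, so it cannot be ranked across members. The group means of GDPD2 span 1.1 log2 units and those of PAH1 1.25, beside 4.59 for NPC4 and 4.96 for PLDZ2.

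Other lipid genes were read from lists set by enzyme family and pathway, with earlier results of these data known. All 8 galactolipid and sulfolipid synthesis genes rose in starved untreated roots over fed untreated roots (median log2 fold change 3.003, beside 0.003 over all genes). MGD3, a monogalactosyldiacylglycerol synthase gene, averaged 96.8 CPM in starved untreated roots and 1.70 CPM in fed untreated roots, SQD2, the sulfolipid synthase gene, 581 and 48.4 CPM, and SQD1, which makes the sulfolipid head group precursor, 166 and 15.1 CPM. All 8 fell with each zeatin in starved roots, with a median of -1.42 with trans-zeatin and -1.36 with cis-zeatin. Of all tested genes 18.4% and 18.1% passed as lower there. MGD3 had log2 fold changes of -2.60 with trans-zeatin and -2.24 with cis-zeatin. In fed roots 4 of the 8 rose with trans-zeatin, where 24.2% of all tested genes passed as higher, and 0 of the 8 passed with cis-zeatin.

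On starvation without zeatin 22.9% of all tested genes passed as higher and 21.8% as lower, shares that stand beside each starvation count of the lists. Other GDPD and GDPD-like genes gave 3 higher and 1 lower of 4 tested on starvation. GDPD5 rose (1.35 ± 0.0762), SVL1 rose (0.39 ± 0.0862) and GDPD4 fell (-0.68 ± 0.083), on the log2 scale. Of 14 other phospholipases C and D, 3 rose and 2 fell, with changes of 1.23 ± 0.259 for NPC2 and -0.47 ± 0.101 for PLDgamma3. The phosphoinositide-specific phospholipases C, which cleave signalling lipids, gave 3 higher and 1 lower of 8 tested on starvation. PLC9 (1.33 ± 0.0849), PLC2 (1.09 ± 0.0756) and PLC7 (1.38 ± 0.121) rose there. With trans-zeatin in starved roots 6 of the 8 fell and with cis-zeatin 5 fell, where 18.4% and 18.1% of all genes passed as lower. In fed roots 5 of the 8 fell with trans-zeatin and 3 with cis-zeatin, where 25.3% and 13.5% of all genes passed as lower. PLC9 had log2 fold changes of -1.88 and -1.75 in starved roots and -1.77 and -1.80 in fed roots, with trans-zeatin and cis-zeatin in that order. Patatin-related phospholipases A gave 1 higher (PLP2, 1.23 ± 0.216) and 3 lower of 8, and lipid phosphate phosphatases and diacylglycerol kinases 2 higher and 1 lower of 8, of which LPP3 changed by 0.28 ± 0.0711. Of 16 phospholipid synthesis genes 5 rose and 2 fell on starvation. PMT1 and PMT3, which methylate phosphoethanolamine on the way to phosphocholine, moved in opposite directions, at 1.25 ± 0.113 and -1.19 ± 0.143. The medians of these lists on starvation lay between -0.20 and 0.49, beside 2.58 for the tested members.

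**Figure D5:**
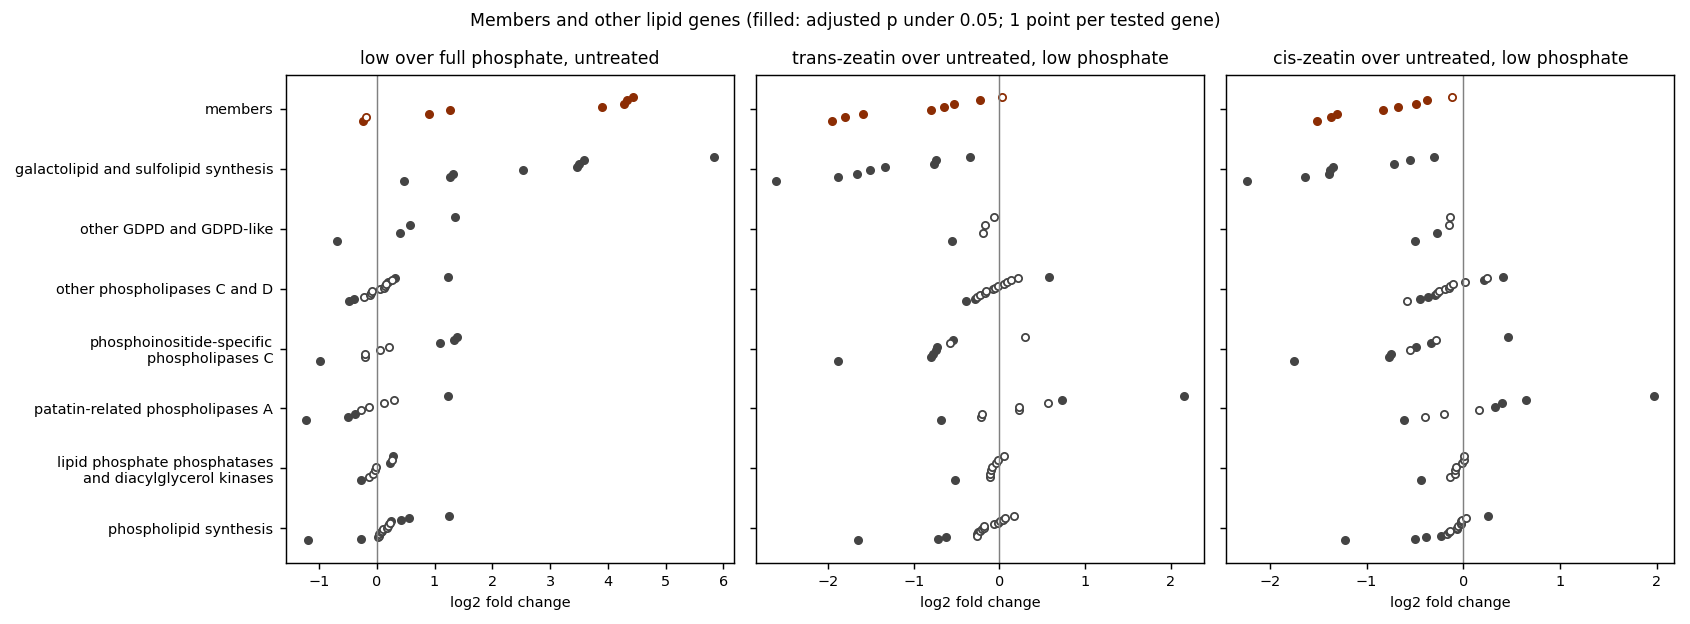
Log2 fold change (horizontal axis, a scale of its own per panel) of the tested members and of 7 lists of other lipid genes, 1 point per tested gene, in starved over fed untreated roots, and in trans-zeatin and cis-zeatin over untreated starved roots; filled points passed at an adjusted p under 0.05. The galactolipid and sulfolipid genes, like most members, lie right of 0 in the first panel and left of 0 in the others, while of the 16 phospholipid synthesis genes 5 rose and 2 fell on starvation. Of all tested genes 22.9% passed as higher and 21.8% as lower on starvation.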

How the data were processed

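Poly(A) RNA of Col-0 roots was sequenced in 18 libraries. The submitters' processing notes name HISAT2, HTSeq, edgeR, FastQC and CASAVA 1.4, without their roles. Genome build and strand setting are not given in the sources used here. The deposited table of the authors is named for normalized counts but behaves as raw counts per gene: all values are whole, and the smallest whole number absent from a library is 647 to 1102. It was analysed as counts. The deposited sequencing report, other in kind, gave clean reads (88.66 to 91.02% of them counted) and discarded reads.

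Genes were kept with filterByExpr (minimum count 10), scaled by TMM (factors 0.953 to 1.063) and tested with glmQLFit and glmQLFTest of edgeR 4.0.16 (limma 3.58.1, R 4.3.3), with a mean per group over all 18 libraries; the common biological coefficient of variation was 8.48%. In each of 14 comparisons p-values were adjusted by Benjamini-Hochberg across all 19982 genes, with a threshold of 0.05; the fitting step was tested on simulated data. A log2 fold change in the text is of the fit, with its SE or 95% interval. Alternatives were DESeq2 1.42.0, RLE scaling, other filters, only the compared groups, a replicate block, the discard class as a term and leaving out each library; leaving out both starved zeatin libraries numbered 2 was chosen after seeing the data. The members, the lists of other genes and the markers were chosen with earlier results of these data known. All tested members are named in every comparison. NPC5 and GDPD6 are described apart by their reads, with tests given only between the untreated groups. For each list, up to 3 genes with the smallest adjusted p on starvation may be named. For members whose group means span at least 1 log2 unit, the 3 nearest genes are named.

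Replicate numbers were checked for pairing by the correlation of deviations from the group means: only starved trans-zeatin and starved untreated libraries paired (r = 0.267, 0.303 and 0.166), and no member's call in that comparison changed with the block. Replicates differed by more than sampling noise (chi-square per degree of freedom 2.79 to 31.79). Library totals limit precision little except for NPC5, GDPD6, GDPD3 and, in fed roots, PLDZ2. Intervals cover these samples only.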

Additional observations from a re-analysis of the deposited data

Results flagged for a closer look

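Each of these results is a response that differed between the phosphate levels by a test of the difference itself, edgeR's interaction term, with n = 3 per group. The response to trans-zeatin in starved roots minus that in fed roots was -1.265 for NPC4, -1.338 for PLDZ2, -0.847 for PAH1, -2.503 for GDPD1, -1.621 for GDPD2 and -3.086 for GDPD3 on the log2 scale, with adjusted p between 1.97e-09 and 0.00271. For cis-zeatin it was -2.152 for NPC4, -0.969 for PAH1, -1.512 for GDPD1, -0.61 for GDPD2 and -3.141 for GDPD3, with adjusted p between 1.53e-07 and 0.00161. The difference of trans-zeatin minus cis-zeatin in starved roots minus that in fed roots was 0.887 for NPC4, -0.992 for GDPD1 and -1.011 for GDPD2, with adjusted p between 7.07e-06 and 0.000795. GDPD3 was close to 0.4 CPM in fed untreated roots, so its interactions rest on few reads in that group. The discard class cannot be told apart from the interaction for cis-zeatin or for the isomer difference.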

How the results depend on the processing

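Of 1616 values of single members under an alternative, 1519 kept their direction and their side of the threshold, 54 no longer passed, 17 newly passed and 26 changed sign; the cause was not tested. Where the discard class could be a term, genes called were 4140 for trans-zeatin in starved roots, 2678 for cis-zeatin in starved roots, 3116 for low against full phosphate under cis-zeatin (4 members called) and 1767 for the trans-zeatin interaction. Each of these fits rests on starved trans-zeatin, the only group whose libraries fall in different classes. For trans- against cis-zeatin in starved roots, 553 genes were called, 926 with DESeq2, 325 without both starved zeatin libraries numbered 2, 79 with only the compared groups and 293 to 847 when each library was left out; with only the compared groups edgeR called 0 members (1 had an unadjusted p under 0.05; adjusted p = 0.117 for GDPD1), against 1 otherwise, DESeq2 included. With only the compared groups 5 members were called for cis-zeatin in fed roots, against 3. When each library was left out, 2 to 4 members were called for trans- against cis-zeatin in fed roots and 3 to 4 for trans-zeatin in fed roots.

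Values that changed sign were all small and did not pass. For trans- against cis-zeatin in starved roots, GDPD3 was -0.09 and PAH1 -0.001 with the discard class, and PAH1 was -0.069 without both libraries numbered 2; leaving out each library gave -0.082 to 0.017 for GDPD2, -0.133 to 0.296 for GDPD3 and -0.058 to 0.129 for PAH1. In fed roots such ranges were -0.20 to 0.17 for GDPD3 and -0.15 to 0.18 for PLDZ2. They were -0.14 to 0.32 for GDPD3 and -0.117 to 0.053 for PLDZ1 in the isomer interaction, and -0.029 to 0.101 for PLDZ1 with trans-zeatin in starved roots.

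The replicate block changed no call of a member in the comparison whose libraries pair. In comparisons whose libraries share only a number, the block ended the PLDZ1 call in starved trans-zeatin over fed untreated roots (-0.21, adjusted p = 0.0514) and brought in PLDZ2 in fed roots with trans-zeatin (-0.48, 0.0211), with cis-zeatin (-0.54, 0.0199) and in the cis-zeatin interaction (-1.01, 0.00428). Members were called 7 times for starvation with the block, as without it. Depth limits NPC5 and GDPD6, which had at most 9 reads in a library, and GDPD3, most of all in fed untreated roots. It also limits PLDZ2 in fed roots, at 50 to 114 reads per library.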
